A study of Homo sapiens with 4 samples.

Results

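Cassette exons that lie wholly upstream of the start codon were examined in MDA-LM2, a line of human breast cancer cells derived from MDA-MB-231 and selected for metastasis to the lung. Cells had been transfected by lipofection with the SSE mimetic, an RNA that stands for a structured splicing enhancer, or with a scrambled oligo. Each group had 2 samples, 4 in all, and nothing in the labels says whether they were separate cultures. The deposited tables hold 1 pooled read set per group, so no value per sample, no replicate spread and no test across samples can be given. In bulk RNA, more cells that include an exon and more inclusion per cell cannot be told apart.

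The exons were skipped exons of at least 76 nt and under 1 kb whose coordinates match a GENCODE release 29 exon before the start codon of at least 1 coding transcript, and which reach the coding sequence in no matching transcript. Among 39120 distinct skipped exons listed for both groups, 3320 met this description. Each group had to have 10 or more isoform-specific reads, that is, reads that match only the form with the exon (inclusion reads) or only the form without it (skipping reads). This left 473 exons in 361 genes, out of 8228 tested exons. In the SSE mimetic group 492 of the 3320 had enough reads, and in the scrambled group 1366. The 61 exons with exactly 10 reads in the smaller group had a median Ψ of 0.58 in SSE mimetic cells and 0.45 in scrambled oligo cells. The 64 exons with 9, just outside, had 0.50 and 0.29. The median of the differences per exon, SSE mimetic minus scrambled, was 0.07 with 10 reads and 0.04 with 9.

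The 5′ untranslated region (5′ UTR) is the leader that the ribosome scans from the cap to the start codon. A leader exon usually leaves the protein unchanged when it is kept or skipped. It can change translation, because it adds length, structure or upstream start codons (uATGs) with short open reading frames (uORFs) that ribosomes may translate instead of the main frame. Such exons are often weakly spliced and specific to 1 promoter or transcript.

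Sequences that inclusion would add to the leader are shown first. Of the 18 called exons named below for their size of difference, 7 hold an ATG with a purine 3 bases before it and a G just after it, the context in which scanning ribosomes initiate best. The first such ATG of 6 of these is given with 9 bases on either side, 5′ to 3′ on the transcript strand, with the ATG in capitals. Letters are from GENCODE release 29 transcripts.
KIAA0753: tagtttaccATGgcaaagctc
RIMKLB: tagtaggggATGgggaaaggg
CNOT2: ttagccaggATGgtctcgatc
BCAT2: actgccaaaATGggtttgtat
RABGAP1: acctggaaaATGgatctgaag
BIRC2: aatcccattATGgagatctcg
In hg38 these windows lie at chr17:6635484-6635504 (minus strand), chr12:8700425-8700445 (plus), chr12:70285421-70285441 (plus), chr19:48807761-48807781 (minus), chr9:122971736-122971756 (plus) and chr11:102348651-102348671 (plus). In BCAT2 the frame that opens at this ATG runs past the main start codon. In the other 5 shown it meets a stop codon before the main start, as a uORF does.

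Junctions that count as inclusion are shown for 2 exons whose neighbours in the deposited event are also their neighbours in an annotated transcript. Capitals mark the skipped exon and lower case the neighbouring exon, with 12 bases from each.
KRIT1, upstream junction: cagtgatcccagTCTTCAATGCGT
KRIT1, downstream junction: CTGTTGCATGAGcaatgggaaatc
CNOT2, upstream junction: agaaactaccagTAAAGACGGGGT
CNOT2, downstream junction: TGATGGTGGCAGgtgacaaacagc
The KRIT1 exon lies at chr7:92244002-92244149 on the minus strand and the CNOT2 exon at chr12:70285400-70285586 on the plus strand.

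The groups differed in depth. Over the 473 exons, inclusion reads numbered 7498 in SSE mimetic cells and 27149 in scrambled oligo cells, and skipping reads numbered 3763 and 33524. The scrambled group thus had 3.62 times as many inclusion reads, 8.91 times as many skipping reads and 4.57 times as many reads shared by both forms. Reads that align within the event but match neither form, taken here as intron reads, were 1.90 times as many. For 5349 coding exons of the same lengths these ratios were 5.02, 6.91, 4.75 and 1.89. Reads that match neither form made up 89.7% of the reads of the leader exon events in SSE mimetic cells and 77.5% in scrambled oligo cells. Over all tested exons they made up 86.9% and 72.6%. Isoform-specific reads per exon had a median of 16 in SSE mimetic cells and 54 in scrambled oligo cells. Events of CD44 and AXL, which mark this mesenchymal line, had up to 1398 and 226 reads in SSE mimetic cells, against 10893 and 1090 in scrambled oligo cells. Listed events of ESR1, PGR, CDH1, GATA3, PTPRC, ALB and CD3E had at most 27 in SSE mimetic cells and 31 in scrambled oligo cells, and those of ESRP1 at most 58 and 94. No event was listed for VIM, MSN, CAV1, KRT18, EPCAM, PECAM1, COL1A1 or HBB.

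The comparison asks how the SSE mimetic changed the inclusion of leader exons. Percent spliced in (Ψ) is the fraction of transcripts that keep the exon, here the authors' posterior mean, given with its 95% credible interval, which covers counting error only. The median Ψ of the 473 exons was 0.62 in SSE mimetic cells and 0.48 in scrambled oligo cells. Ψ was higher in SSE mimetic cells in 303 exons, lower in 148 and equal in 22, with a median difference of 0.04 and an interquartile range of -0.03 to 0.15. The median difference was -0.03 for all tested exons and -0.04 for the coding exons. In scrambled oligo cells 31.9% of leader exons had a Ψ above 0.8, against 70.6% of coding exons. In ranges of scrambled Ψ cut at 0.2, 0.5 and 0.8, leader exons had median differences of 0.07, 0.2, 0.09 and -0.05, from the lowest range up. Those of coding exons were 0.05, 0.2, 0.04 and -0.07. The part of the scrambled Ψ in the contrast of medians was not tested. For the 473 exons, the median width of the credible interval was 0.36 in SSE mimetic cells and 0.16 in scrambled oligo cells.

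An exon was called when the authors' Bayes factor, which weighs a model with a difference against one without, reached 10 and the difference in Ψ reached 0.1. Of the 473 exons, 33 in 27 genes were called higher in SSE mimetic cells and 3 in 3 genes lower, while 437 were not called. These 36 are 7.61% of the exons, whereas 3.97% of all tested exons were called. Among coding exons of these lengths 3.31% were called and 2.34% called higher, and among exons of noncoding transcripts 4.85% and 4.5%. The share of leader exons called higher was 6.98%, against 3.09% of all tested exons, and the share called lower 0.634%, against 0.887%. The credible intervals of the 2 groups were apart for all 33 exons called higher. Those 33 had a median Ψ of 0.53 in SSE mimetic cells and 0.15 in scrambled oligo cells.

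**Figure D1:**
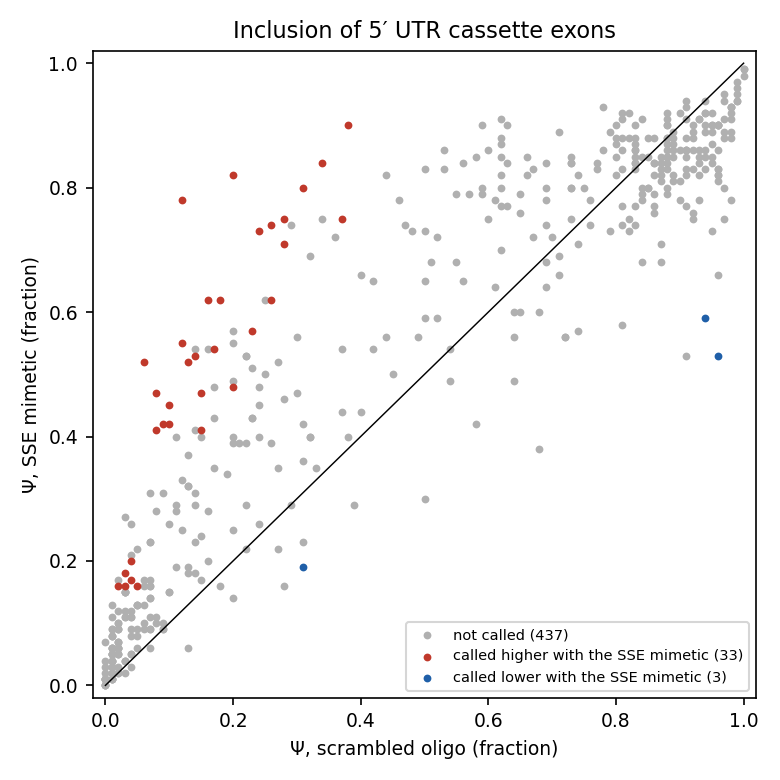
Ψ of each of the 473 exons in SSE mimetic cells (vertical axis, fraction) against Ψ in scrambled oligo cells (horizontal axis, fraction). Red points are the 33 exons called higher, blue points the 3 called lower, grey points the 437 not called, and the line marks equal values. The red points start from a Ψ of 0.38 or less in scrambled oligo cells.

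Intron reads were compared beside this result. They can include reads of other exons, because the flanking introns of some events span annotated exons. The downstream intron of the CNOT2 event at chr12:70285400, for example, spans the CNOT2 exon at 70301705. How far this raises the density was not tested. The flanking introns held a median of 47.9 reads per kb in SSE mimetic cells and 81.5 in scrambled oligo cells. At that density an exon would hold a median of 9.03 and 17.2 reads by its length alone, beside the 12 and 25 inclusion reads counted. Inclusion reads were above that number in 282 exons in SSE mimetic cells and in 284 in scrambled oligo cells. Of the 33 exons called higher, 27 were above it in SSE mimetic cells and 19 in scrambled oligo cells. When this density was subtracted and Ψ recomputed with a 2-isoform read model, 16 of the 33 were called higher. Over the 473 exons the model called 44 higher on the reads as deposited, 9.3% against 3.89% of all tested exons. After subtraction it called 27 higher, 5.71% against 2.31%, and 10 lower, 2.11% against 4.91%. With the scrambled reads thinned to the depth of the other pool it called 22 higher, 4.65% against 2.24%.

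The 33 exons called higher all had a Ψ of 0.5 or less in scrambled oligo cells. Of the 473 exons, 178 had a Ψ of 0.2 or less there, 37.6% of them, against 10.9% of coding exons. Among these 178, 23 were called higher, 12.9% (95% Clopper-Pearson interval 8.37 to 18.8), and the coding exons in that range gave 12.3% (9.77 to 15.3). Of 65 exons with a Ψ above 0.2 and up to 0.5, 10 were called higher, 15.4% (7.63 to 26.5), against 14.7% (10.9 to 19.3) of such coding exons. Of the 230 exons above 0.5, none was called higher, against 10 coding exons, all of them at 0.8 or less. With the rate of the coding exons in each range, 32.7 of the 473 would be called higher, beside the 33 counted. No test of a difference between leader and coding exons at like Ψ was made. The scrambled Ψ is one side of the difference, so these ranges are not independent of it.

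**Figure D2:**
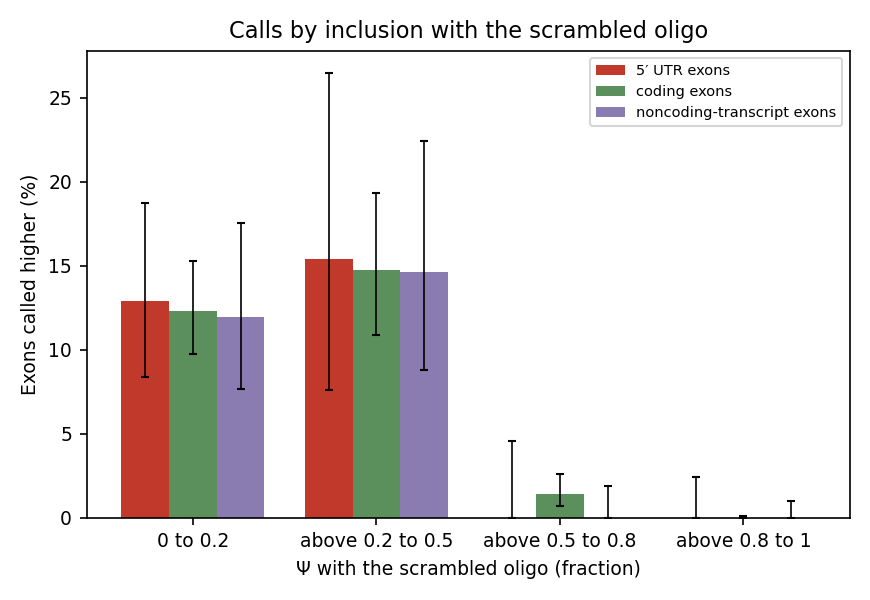
Share of tested exons called higher in SSE mimetic cells (vertical axis, %) in 4 ranges of Ψ in scrambled oligo cells (horizontal axis, fraction), for the 473 leader exons, 5349 coding exons and 866 exons of noncoding transcripts, all in the same length range. Bars are shares and lines their 95% Clopper-Pearson intervals, which treat exons as independent. In the lowest range the leader exons stand at 12.9% and the coding exons at 12.3%.

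The largest difference was in GTF2A2, which encodes the small subunit of the general transcription factor TFIIA. Its exon (chr15:59656815-59657033, minus strand, 219 nt) had a Ψ of 0.78 (0.54 to 0.95) in SSE mimetic cells and 0.12 (0.08 to 0.18) in scrambled oligo cells. It had 18 inclusion reads and 1 skipping read in SSE mimetic cells, against 30 and 57 in scrambled oligo cells. The Bayes factor of this exon was 1e12, the cap, in the authors' deposited table. The intervals do not overlap, and the skipping reads were nearly absent in the SSE mimetic group. The exon is the second of its transcript and lengthens the leader to 377 nt, against 158 nt without it, and carries 2 ATGs, both uORFs. Two-sided Fisher's exact test on inclusion and skipping reads gave an adjusted p of 0.000534 over all tested exons. That test compares these 2 read pools, not the conditions.

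KIAA0753, which encodes a protein of centriolar satellites, had an exon (chr17:6635401-6635634) at 0.82 (0.58 to 0.99) in SSE mimetic cells and 0.20 (0.09 to 0.33) in scrambled oligo cells. It had 13 inclusion reads and no skipping read in SSE mimetic cells, against 7 and 10 in scrambled oligo cells. The exon of NDEL1, a regulator of the motor dynein (chr17:8443927-8444176), stood at 0.73 (0.39 to 0.95) against 0.24 (0.16 to 0.34). It had 10 inclusion reads and 1 skipping read in SSE mimetic cells, while the intron density would place 11.3 reads in it. Both exons were high in SSE mimetic cells and low in scrambled oligo cells, with intervals apart.

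RIMKLB, which encodes a ligase that joins glutamate to N-acetylaspartate or citrate, had the longest of these exons, 830 nt (chr12:8699785-8700614). Its Ψ was 0.90 (0.71 to 0.99) in SSE mimetic cells and 0.38 (0.28 to 0.50) in scrambled oligo cells. It had 50 inclusion and 0 skipping reads in SSE mimetic cells, and 60 and 5 in scrambled oligo cells, and Fisher's exact test gave an adjusted p of 1. The call therefore rests on the balance of inclusion and shared reads, 50 to 25 in SSE mimetic cells and 60 to 96 in scrambled oligo cells. The exon holds 7 ATGs, all uORFs, and lengthens the leader to 1262 nt, against 432 nt without it.

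KRIT1, a partner of the GTPase RAP1 that is mutated in cerebral cavernous malformations, had an exon at 0.84 (0.56 to 0.98) in SSE mimetic cells and 0.34 (0.20 to 0.52) in scrambled oligo cells. Of its other leader exons, 2 overlapping forms were not called (0.90 against 0.80, and 0.85 against 0.80). RAP1B, a small GTPase of adhesion and integrin activation, had 3 overlapping forms of 1 exon that share their downstream end and their skipping reads. The 366 nt form (chr12:68624508-68624873) stood at 0.47 (0.25 to 0.73) against 0.08 (0.05 to 0.11), and the 203 nt and 199 nt forms at 0.45 and 0.42 against 0.10 and 0.10. These 3 are not independent, since all had 2 skipping reads in SSE mimetic cells and 24 in scrambled oligo cells. FYN, a Src-family tyrosine kinase, had an exon at 0.52 (0.19 to 0.92) against 0.06 (0.03 to 0.11), at chr6:111813892-111814107. Its 9 inclusion reads and 1 skipping read in SSE mimetic cells leave the widest interval among these exons. RABGAP1, an activator of Rab GTPase hydrolysis, stood at 0.53 (0.27 to 0.81) against 0.14 (0.08 to 0.21), at chr9:122971665-122971952. It had 10 inclusion reads and 1 skipping read in SSE mimetic cells, and the intron density would place 10.6 reads in it.

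**Figure D3:**
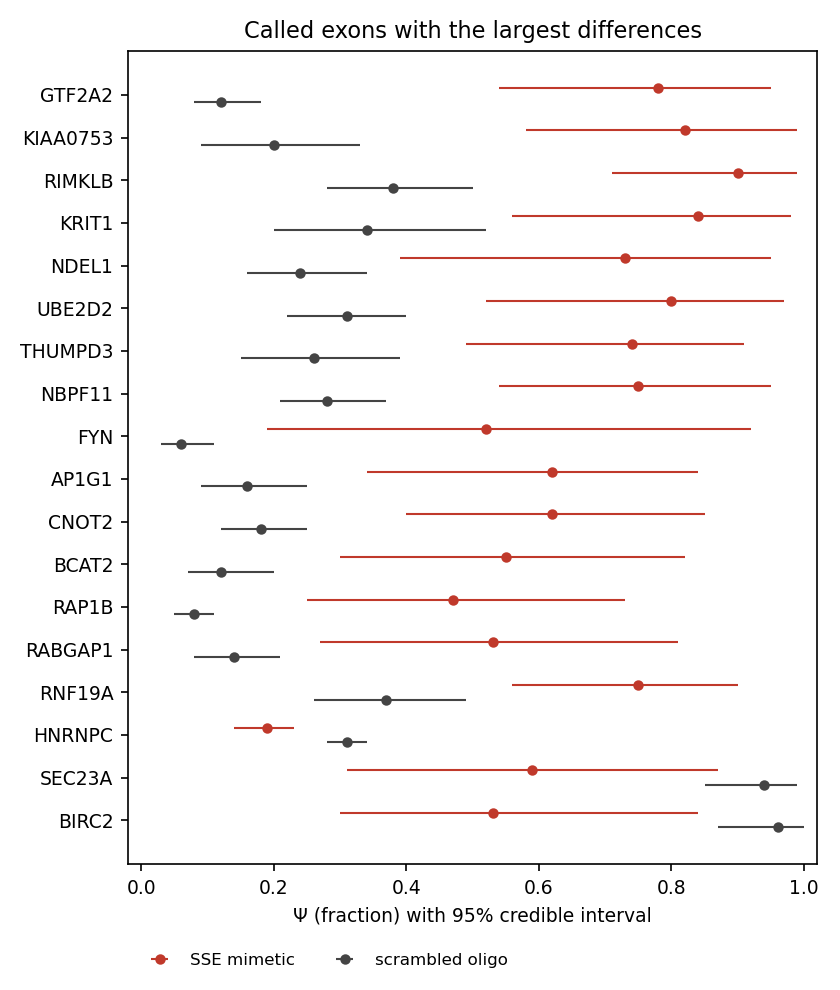
Ψ (horizontal axis, fraction) of the 15 exons called higher with the largest differences, 1 per gene, and of the 3 called lower. Red points are the SSE mimetic group, dark points the scrambled group, and lines the authors' 95% credible intervals of 1 pooled read set each. For GTF2A2, at the top, the groups stand at 0.78 and 0.12, and for BIRC2, at the bottom, at 0.53 and 0.96.

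The gene lists that follow are small, and none was tested against the share over all exons. Of the 473 exons 6.98% were called higher and 0.634% lower, against 3.09% and 0.887% of all tested exons. Ubiquitin genes had 19 leader exons, of which 2 were called higher, 0 lower and 17 not called. UBE2D2, a ubiquitin-conjugating enzyme, had an exon (chr5:139562244-139562407) at 0.80 (0.52 to 0.97) in SSE mimetic cells and 0.31 (0.22 to 0.40) in scrambled oligo cells. It had 13 inclusion reads and 1 skipping read, against 35 and 56, with an adjusted Fisher's exact p of 0.0307. This exon has no ATG. RNF19A, a ubiquitin ligase, stood at 0.75 (0.56 to 0.90) against 0.37 (0.26 to 0.49), at chr8:100303160-100303401.

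Trafficking genes had 9 leader exons, with 3 called higher, 1 lower and 5 not called. AP1G1, the gamma subunit of the AP-1 clathrin adaptor, had 2 overlapping forms called higher. The 136 nt form (chr16:71808015-71808150) stood at 0.62 (0.34 to 0.84) against 0.16 (0.09 to 0.25). The 350 nt form, which has the same upstream end and runs further downstream, stood at 0.71 (0.50 to 0.90) against 0.28 (0.21 to 0.37). The longer form had 21 inclusion and 3 skipping reads in SSE mimetic cells, against 39 and 48 in scrambled oligo cells, with an adjusted Fisher's exact p of 0.0264. COPB2, a coatomer subunit, stayed low in both groups at 0.20 (0.11 to 0.32) against 0.04 (0.02 to 0.05), with 15 inclusion and 20 skipping reads against 21 and 171 (adjusted Fisher's exact p 0.00535).

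The RNA-binding list, which lacks NONO and SNU13, had 25 leader exons, with 2 called higher, 1 lower and 22 not called. Both higher ones were in CNOT2, a subunit of the CCR4-NOT deadenylase. They are separate exons that share their skipping reads, at 0.62 (0.40 to 0.85) against 0.18 (0.12 to 0.25) and, at chr12:70301705-70301865, at 0.52 (0.26 to 0.80) against 0.13 (0.08 to 0.20). In the translation list, WARS, the cytosolic tryptophan-tRNA synthetase, was 1 of 21 called higher, at 0.62 (0.41 to 0.87) against 0.26 (0.19 to 0.33). In the transcription list GTF2A2 was 1 of 27, and 26 exons were not called. In the mitochondrial and metabolic list TXNRD1, thioredoxin reductase, was 1 of 12, at 0.17 (0.10 to 0.27) against 0.04 (0.02 to 0.07). Among solute carriers SLC26A2, a sulfate transporter, was 1 of 16, at 0.54 (0.35 to 0.76) against 0.17 (0.10 to 0.27). Its 15 inclusion reads in SSE mimetic cells were fewer than the 21.1 that the intron density would place there. None of 13 exons of chromatin and DNA genes was called, beside 7.61% of the 473 exons and 3.97% of all tested exons. By Fisher's exact test 0 of those 13 passed after adjustment, beside 3.17% and 1.01%. So few exons cannot show a difference from these shares.

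Kinase, phosphatase and GTPase genes had 24 leader exons, with 4 called higher, the 3 RAP1B forms and PTP4A2, and 0 lower. PTP4A2, a prenylated phosphatase, had an exon at 0.47 (0.31 to 0.64) against 0.15 (0.12 to 0.19). It had 26 inclusion and 5 skipping reads against 73 and 27, a share of inclusion reads of 0.84 against 0.73. The call rests largely on shared reads, 152 against 1483, and the 2-isoform model did not make it after thinning. Cytoskeleton and adhesion genes had 25, with 3 called higher, NDEL1 and 2 exons of the integrin beta-1 gene ITGB1, and 0 lower. The ITGB1 exons stood at 0.16 (0.07 to 0.27) against 0.02 (0.01 to 0.03), at chr10:32953593-32953809, and at 0.16 (0.10 to 0.25) against 0.05 (0.04 to 0.07), from 32933351 to 32933583. The first had 10 inclusion and 16 skipping reads in SSE mimetic cells, against 9 and 158 in scrambled oligo cells (adjusted Fisher's exact p 0.00391). The intron density would place 13.6 and 34.7 reads in it, more than the inclusion reads counted in either group.

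Cell death and stress genes had 8 leader exons, with 2 called higher and 1 lower. Both higher exons were in CANX, which encodes the chaperone calnexin of the endoplasmic reticulum. They share their skipping reads, 10 in SSE mimetic cells and 102 in scrambled oligo cells. The 276 nt exon (chr5:179704155-179704430) stood at 0.18 (0.11 to 0.25) against 0.03 (0.02 to 0.05), with 25 inclusion reads against 32 and an adjusted Fisher's exact p of 0.000234. The 196 nt exon, from 179699575 to 179699770, stood at 0.16 (0.09 to 0.26) against 0.03 (0.02 to 0.04), with 17 inclusion reads against 21. The intron density would place 23.1 reads in the first in SSE mimetic cells and 66.0 in scrambled oligo cells.

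The lists were made from gene symbols and so lack FYN, KRIT1, RABGAP1, NONO and SNU13. Outside them 13 of 274 exons were called higher and 0 lower. BCAT2, the mitochondrial branched-chain aminotransferase, had an exon (chr19:48807756-48808236) at 0.55 (0.30 to 0.82) in SSE mimetic cells and 0.12 (0.07 to 0.20) in scrambled oligo cells. THUMPD3, a tRNA methyltransferase (chr3:9363835-9364038), stood at 0.74 (0.49 to 0.91) against 0.26 (0.15 to 0.39). NBPF11 (chr1:148127141-148127288) stood at 0.75 (0.54 to 0.95) against 0.28 (0.21 to 0.37), with 0 and 2 skipping reads. NBPF11 belongs to a family of near-identical copies, so its reads are uncertain. SNU13, a protein of the U4/U6.U5 snRNP, stood at 0.42 (0.27 to 0.58) against 0.09 (0.06 to 0.12), with 33 inclusion and 8 skipping reads against 36 and 40. CCT3, a chaperonin subunit, and NONO, a nuclear RNA-binding protein, stood at 0.48 against 0.20 and 0.41 against 0.15. SPDL1, a kinetochore protein, stood at 0.57 against 0.23, and OSBPL2, a lipid-binding protein, at 0.41 against 0.08.

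The 3 exons called lower were in BIRC2, SEC23A and HNRNPC. BIRC2 encodes the apoptosis inhibitor cIAP1, and its exon (chr11:102348598-102348764) had a Ψ of 0.53 (0.30 to 0.84) in SSE mimetic cells and 0.96 (0.87 to 1.0) in scrambled oligo cells. It had 16 inclusion and 184 shared reads in SSE mimetic cells, against 172 and 870 in scrambled oligo cells, and no skipping read in either group. SEC23A, a COPII coat protein, stood at 0.59 (0.31 to 0.87) against 0.94 (0.85 to 0.99), at chr14:39103032-39103228, also with no skipping read. These 2 calls therefore rest on shared reads, and Fisher's exact test, which needs skipping reads, gave an adjusted p of 1 for both. All 3 lie within a longer annotated exon, and the BIRC2 exon also overlaps the coding sequence of another transcript.

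HNRNPC, which encodes a protein that binds nascent transcripts and masks cryptic exons, had 4 leader exons that differed in direction. The exon at chr14:21263311-21263582 was called lower, at 0.19 (0.14 to 0.23) against 0.31 (0.28 to 0.34), with 69 inclusion and 7 skipping reads against 591 and 50. Its share of inclusion reads was similar, 0.908 against 0.922. This call thus also rests on shared reads, 442 in SSE mimetic cells and 2156 in scrambled oligo cells. The next one downstream, from 21262601 to 21262768, stood at 0.07 (0.05 to 0.11) against 0.02 (0.01 to 0.03). It had 23 inclusion and 40 skipping reads in SSE mimetic cells, against 37 and 445 in scrambled oligo cells, and an adjusted Fisher's exact p of 5.87e-06, the smallest of the 473. Its Bayes factor was 110.37 in the authors' deposited table, but the difference of 0.05 is under the size needed for a call. The other two stood at 0.06 against 0.07 and at 0.01 against 0.00.

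By Fisher's exact test with Benjamini-Hochberg adjustment over all tested exons, 15 of the 473 exons passed, 3.17%, against 1.01% of all tested exons. The share of inclusion reads was larger in SSE mimetic cells in all 15. At an unadjusted p under 0.05, 77 passed, 16.3% against 5.51%, and in all 77 it was again larger in SSE mimetic cells. Coding exons passed in 0.785% after adjustment and 4.26% before it, and exons of noncoding transcripts in 1.39% and 6.58%. Of the 33 exons called higher, 7 passed after adjustment, and of the 3 called lower none. Skipping reads were present in scrambled oligo cells in 72.5% of leader exons, against 38.3% of coding exons, and an exon with none in either group cannot pass. Besides those above, exons of ANXA2, LDHB, EEF1D and NUCB2 passed, all with a Ψ of 0.27 or less. The LDHB exon, in the gene of lactate dehydrogenase B, stood at 0.06 (0.03 to 0.09) against 0.01 (0.01 to 0.02), with 11 inclusion and 52 skipping reads against 18 and 472 (adjusted Fisher's exact p 0.0209). The intron density would place 70.7 reads in it in SSE mimetic cells, far more than its inclusion reads. Whether that density includes reads of other exons was not tested.

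Uncalled exons with the most reads show the 2 ends of the range. The exon of DDX5, an RNA helicase, stood at 0.99 (0.96 to 1.0) in SSE mimetic cells against 1.0 (0.98 to 1.0) in scrambled oligo cells, with 258 inclusion reads against 1159 and no skipping read. At the other end, the LDHA exon had 0 inclusion and 199 skipping reads in SSE mimetic cells, against 4 and 3526 in scrambled oligo cells. An ENO1 exon had 2 and 251, against 7 and 2635. A second ENO1 exon and those of SNRPD2 and PPIA stood at 0.01 to 0.03 in SSE mimetic cells and 0.01 to 0.04 in scrambled oligo cells.

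The reach of the intron correction is seen by exon. Among the 15 largest, the recomputed difference of GTF2A2 was 0.667 on the reads as deposited and 0.593 after subtraction, and KIAA0753 gave 0.643 and 0.634. KRIT1 gave 0.502 and 0.679. UBE2D2 gave 0.475 and 0.384 and CNOT2 0.441 and 0.275, and neither was called after subtraction. NDEL1 gave 0.473 and 0.110, RABGAP1 0.402 and 0.0515, and RAP1B 0.401 and 0.143. Of these, the 366 nt form of RAP1B was called after subtraction, and NDEL1 and RABGAP1 were not. That form had 19 inclusion reads in SSE mimetic cells, where the intron density would place 14.9. In scrambled oligo cells it had 29, where the density would place 28.4, so few reads remain in either group. The 203 nt and 199 nt forms of RAP1B were not called after subtraction. For CANX the 276 nt exon gave 0.143 and 0.0189. The model called SEC23A lower after subtraction but not on the reads as deposited. BIRC2 gave -0.429 and -0.600 and HNRNPC -0.125 and -0.144, both called in these 2 settings, and BIRC2 was not called once the scrambled reads were thinned. The 16 inclusion reads of BIRC2 in SSE mimetic cells were fewer than the 20.4 that the intron density would place there. Subtraction therefore left no inclusion read in that group, and its value after subtraction is a floor.

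**Figure D4:**
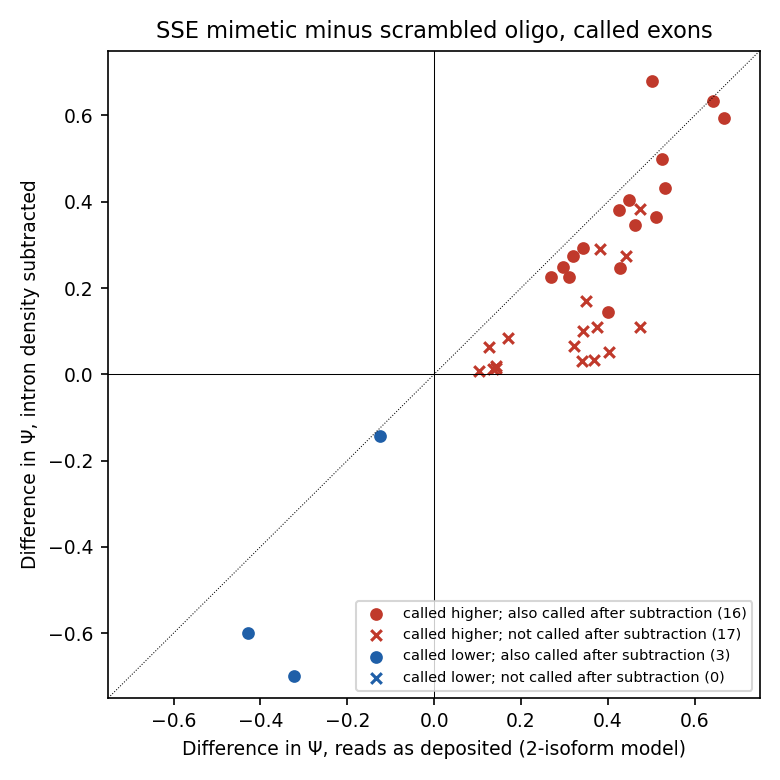
Difference in Ψ, SSE mimetic minus scrambled oligo, of the 36 called exons, recomputed with a 2-isoform model on the reads as deposited (horizontal axis) and after subtraction of the flanking intron read density (vertical axis). Circles are exons also called after subtraction and crosses those that were not, red for exons called higher and blue for lower, and the dotted line marks equal values. Of the 33 red points, 16 are circles, and several crosses lie near 0.

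Most of the exons sit next to the start codon. In the transcript used for each exon, 359 of the 473 were the second exon, and in 360 the next exon held the start codon. The median exon was 188 nt and made up 47.5% of a median leader of 428 nt, and in 213 it was more than 50% of the leader. In 13 the exon was the first exon of some matching transcript. A longer annotated exon contained 202 of them, and whether inclusion reads came from that form was not tested. The coding sequence of another transcript overlapped 39. Of those 202, 7 were called higher, 3.47%, and 3 lower. Of the other 271, 26 were called higher, 9.59%, and 0 lower. Over all tested exons 3.09% were called higher and 0.887% lower, and no difference between these sets was tested.

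An ATG began in 409 of the 473 exons, 86.5%, and in 29 of the 33 called higher. These exons held 1451 ATGs, of which 1297 opened a uORF, 128 a frame that overlapped the main one, and 26 were in frame with the main start with no stop between. An ATG in the favourable context occurred in 162 exons, 34.2%, and in 14 of the 33, 42.4%. ATGs were sparser than in coding exons, at 1.37 per 100 nt against 1.91. The exons called higher held a median of 4 ATGs, against 2 in those not called, and were longer, with a median of 217 nt against 179 nt. Exons with an ATG were called higher in 7.09% and those without in 6.25%.

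**Figure D5:**
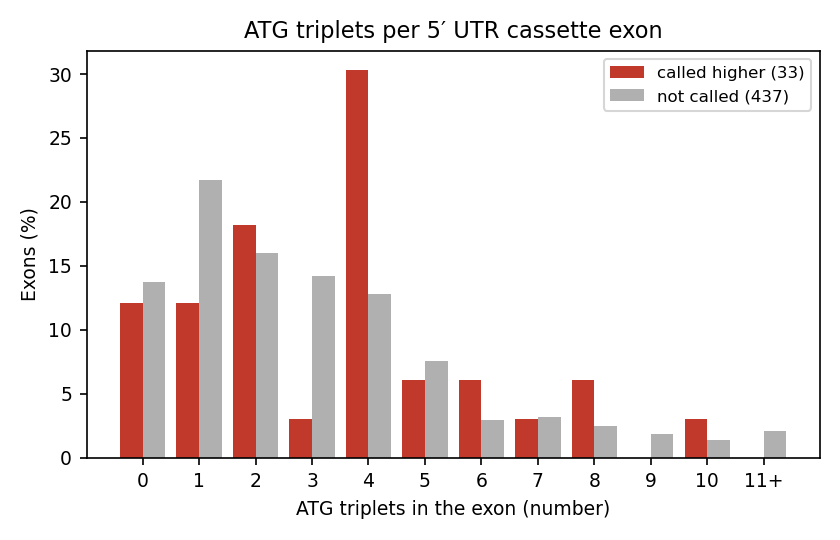
Number of ATG triplets that begin in each exon (horizontal axis, with 11 or more in the last class) as a share of exons (vertical axis, %). Red bars are the 33 exons called higher in SSE mimetic cells and grey bars the 437 not called. The medians are 4 and 2.

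Some leader exons share stretches of a repeat. The 12-base stretch found in most genes was CTGGGATTACAG, on either strand, present in 30 exons of 27 genes, 6.34%. It occurred in 1.40% of coding exons and 4.62% of noncoding-transcript exons of the same lengths. It belongs to the Alu element, a primate retrotransposon whose copies can be spliced into transcripts as exons. It stood as written, the strand opposite to the Alu consensus, in 24 exons, and reversed in 6. At least 1 of the 25 most shared stretches occurred in 65 exons, 13.7%, against 9.58% of noncoding-transcript exons and 3.01% of coding exons. The stretches were chosen for being common here, so these shares describe the exons and test nothing. The 65 exons had a median Ψ of 0.39 in SSE mimetic cells and 0.18 in scrambled oligo cells. Of these, 7 were called higher, 10.8%, in CANX, CNOT2, COPB2, RAP1B and THUMPD3. Among the other 408 the medians were 0.68 and 0.54, and 26 were called higher, 6.37%. Over all tested exons 3.09% were called higher, and no difference between these sets was tested.

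Flanking introns differed as well. The exons called higher had a median downstream intron of 9029 nt, against 2871 nt for those not called. Their median upstream intron was also longer, 3723 nt against 1908 nt. Of 118 exons with a downstream intron above 9891 nt, 16 in 13 genes were called higher, overlapping forms included. That is 13.6%, beside 3.09% of all tested exons called higher. In the other exons, cut at downstream introns of 1021 and 3048 nt, 7 of 120, 5 of 117 and 5 of 118 were called higher, from the shortest up. The exons with the longest introns also had the lowest median Ψ in scrambled oligo cells, 0.345, against 0.595, 0.50 and 0.515 in the same order, and the part of this in the calls was not tested.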

How the data were processed

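RNA-seq libraries of MDA-LM2 cells were made with ScriptSeq v2 from column-purified, DNase-treated total RNA, per the labels' protocols. Reads were aligned with STAR 2.7 to hg38, per the submitters' processing notes. The deposited tables are, per the file headers, skipped-exon summaries of the program MISO, 1 per group and 1 comparison. The MISO version, its event set and how the 2 samples of a group were pooled are not stated in any source used here. Ψ is deposited as a fraction, and the difference (SSE mimetic minus scrambled) is a deposited score between -1 and 1. The Bayes factor is a deposited ratio, capped at 1e12 per the file's values. Read numbers per event are deposited as text.

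Exons were matched to GENCODE release 29. Of events that share an exon, the one with most isoform-specific reads was kept. Fisher's exact test was two-sided, with Benjamini-Hochberg adjustment over all 8228 tested exons. The 2-isoform model used a uniform prior and an assumed read length of 76 nt. Its calls and the Fisher calls were also run on simulated data. The changed exons there had large changes and more reads than many exons here, and no intron reads were simulated. Those runs therefore do not show how the calls perform on these data. Sequences came from GENCODE transcripts, 1 transcript per exon. Functional lists were made from gene symbols. Named exons were the 15 called exons per direction with the largest differences, 1 per gene (only 3 were lower), up to 12 that passed Fisher's exact test, the 5 with most reads, and the 5 uncalled ones with most skipping reads; other called exons are named by list. Some items that this rule selects are not reported here. The exons, lists and tests were chosen with earlier results of these data known. Python 3.11.15, numpy 2.4.6, pandas 2.3.3, scipy 1.17.1 and matplotlib 3.10.9 were used.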

Additional observations from a re-analysis of the deposited data

How the results depend on the processing

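No paired analysis was possible because the deposited tables pool the samples of each group, and for the same reason no replicate could be left out. The 33 exons called higher and 3 called lower became 14 and 0 with a Bayes factor of at least 100. They became 18 and 1 of the 168 exons with at least 20 isoform-specific reads, and 77 and 11 with no read minimum (3320 exons). With Fisher's exact test in place of the Bayes factor they became 8 and 0. The shares of all tested exons called at these settings are not given here, so these counts do not compare leader exons with others. The number called lower was 0 with the share of inclusion reads in place of Ψ, 1 where skipping reads were required in both groups, 10 after subtraction of the intron read density and 1 after thinning of the deeper pool. Of the 33, 11 were called in all 3 settings of the 2-isoform model. The median difference of 0.04 became 0.07 where skipping reads were required in both groups and 0.0183 after subtraction. As an alternative chosen after seeing the data, exons whose inclusion reads exceeded the intron level in both groups were taken alone, and 18 of these 246 were called higher with a median difference of 0.02. None of the called exons among the 36 named ones changed sign under the model settings, the inclusion share or the other event choice, though BIRC2 and SEC23A had no difference in inclusion share. The uncalled DDX5 exon had -0.01 and, after thinning, 0.0091. Among the named exons 9 calls were lost after subtraction, at differences of 0.0132 to 0.384. After thinning 7 were lost, 5 of them higher ones at 0.112 to 0.463 (NDEL1 0.463, RABGAP1 0.337, RNF19A 0.303) and BIRC2 and SEC23A at -0.293 and -0.218; the cause was not tested. Depth limits the comparison: with a median of 16 reads in the SSE mimetic group, the credible interval was 0.36 wide at the median exon. The share of reads that match neither form also differed, 89.7% in the SSE mimetic pool against 77.5% in the scrambled pool. Its part in the calls was not tested.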

Other observations

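Several genes had more than 1 leader exon. EEF1D, which encodes a subunit of translation elongation factor 1, had the most, with 7 overlapping or neighbouring forms. All stood low, at 0.04 to 0.15 in SSE mimetic cells and 0.01 to 0.03 in scrambled oligo cells, and none was called. Of these forms, 3 passed Fisher's exact test on reads after adjustment, with p of 0.0313, 0.0372 and 0.0453. Most share the same skipping reads, 38 in SSE mimetic cells and 474 in scrambled oligo cells, and are not independent. NUCB2, which encodes nucleobindin 2, had 5 forms in different states. One exon (chr11:17282789-17282943) stood at 0.66 (0.39 to 0.92) in SSE mimetic cells and 0.96 (0.87 to 1.0) in scrambled oligo cells. Another, from 17291240 to 17291365, stood at 0.27 (0.10 to 0.52) against 0.03 (0.01 to 0.06), with 6 inclusion and 5 skipping reads against 3 and 51 and an adjusted Fisher's exact p of 0.0429. Neither was called, with Bayes factors of 1.43 and 6.05 in the authors' deposited table. These exons were singled out after their values were seen.

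HDLBP, the gene of vigilin, which binds RNA, had 4 leader exons, none called. The 342 nt form (chr2:241268954-241269295) stood at 0.52 (0.31 to 0.74) against 0.27 (0.19 to 0.35), and its 338 nt form at 0.50 against 0.25. The other two were nearly always skipped, at 0.04 against 0.01 and at 0.01 against 0.00.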
